A study of Arabidopsis thaliana with 20 samples.

Results

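The 16 arrays described here are those of replicates 2 and 3 and of replicates 4 and 5 in an Arabidopsis thaliana seedling experiment, 8 arrays on each side, out of 20 in all. They were chosen by the replicate number in each label, and the split was chosen because it carries the largest variance in these arrays. What the 4-5 against 2-3 difference shows is therefore given as a description, with no test. The labels give no culture, extraction or array run for a number, so seedlings, RNA preparation and array processing cannot be told apart, and nothing states that the replicates came from separate cultures. The remaining 4 arrays, replicate 1 of each group, were left out of the contrast and are given beside it.

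All arrays were made from whole seedlings that were 10 days old, grown on MS agar with 16 h of light a day at 23 °C. The VND7 line carries 35S:VND7-VP16-GR, homozygous and with a single insertion, in which the constitutive 35S promoter drives a fusion of the vessel-cell NAC factor VND7 with the VP16 activation domain and the glucocorticoid receptor domain. The control line carries the empty vector 35S:VP16-GR, also homozygous with a single insertion. Every group received cycloheximide (CHX), an inhibitor of protein synthesis, for 6 h in all, and for the last 4 h either dexamethasone (DEX), which lets a receptor fusion enter the nucleus, or none. The treatment protocol gives both compounds at 10 µM, while other label fields give 10 mM. Each side thus holds 2 arrays of each of the 4 groups: VND7 line with CHX, VND7 line with DEX and CHX, empty vector with CHX, and empty vector with DEX and CHX. All seedlings had been soaked in an inhibitor of translation, so the levels are not those of untreated plants.

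Seedling transcripts follow the time of day, the light and the temperature, as well as tissue composition. GIGANTEA and other outputs of the circadian clock cycle each day, cold and dehydration genes protect cells when water or warmth is short, and genes of chlorophyll and starch metabolism follow light and the carbon supply. Jasmonate induces defensins and other defence genes, and light and sugar favour the synthesis of anthocyanins and other flavonoids. In bulk RNA from whole seedlings, fewer cells of a type and less RNA per cell cannot be told apart.

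On the recovered signal scale the array medians were 159.7 to 173.5 in replicates 2 and 3 and 176.6 to 186.0 in replicates 4 and 5, so the sides did not overlap even in this summary. Values were divided by the array median; without that division the median of all probe sets moves by 0.11 on the log2 scale towards replicates 4 and 5, and differences are given relative to it. Probe sets under 20 signal units made up 15.7% to 19.6% of the arrays of replicates 2 and 3 and 15.9% to 18% of those of replicates 4 and 5. Of 10 fixed markers of leaf and green tissue, 2 had a named probe set, RCA and LHCB4.1, with a summed signal of 26247 to 38304 in replicates 2 and 3 and 33689 to 40783 in replicates 4 and 5. Of 9 root markers, EXPA18 and EXPA7 had a named probe set, and their sum was 64.7 to 126.8 in replicates 2 and 3 and 40.3 to 109.7 in replicates 4 and 5. Among the 5 guard cell markers, SPCH, FMA and MUTE summed to 179.0 to 336 and 214 to 305 in the same order. The sum hides unlike shifts of its members. SPCH had the higher range in replicates 4 and 5 (66.5 to 173.6 and 123.4 to 189.6). FMA (96.9 to 166.1 and 80.0 to 108.4) and the dim MUTE (8.7 to 42.3 and 3.4 to 12.6) had the lower range there. For each of these genes the sides overlapped. The meristem gene CLV3 was at 1.5 to 18 on every array of both sides, near the floor of the scale. None of these markers met the rule for a difference given below, and their part in the differences was not tested.

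After the group means were removed, the arrays fell apart by replicate number. The first principal component, over probe sets brighter than the median, held 48.7% of the variance and put replicates 2 and 3 at -31.0 to -25.4 and replicates 4 and 5 at 23.0 to 29.5. The second, with 26.8%, set replicate 1 apart at 33.9 to 41.8, while the other arrays lay between -14 and -1.38. Deviations of arrays from different groups correlated across probe sets with a median r of 0.656 for replicate 2 with 3 (12 pairs) and 0.709 for 4 with 5 (12 pairs). Between the sides r was -0.697 to -0.385 (48 pairs). Probe sets are not independent, and the deviations share their group means, so these values describe the arrays and carry no test.

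**Figure D1:**
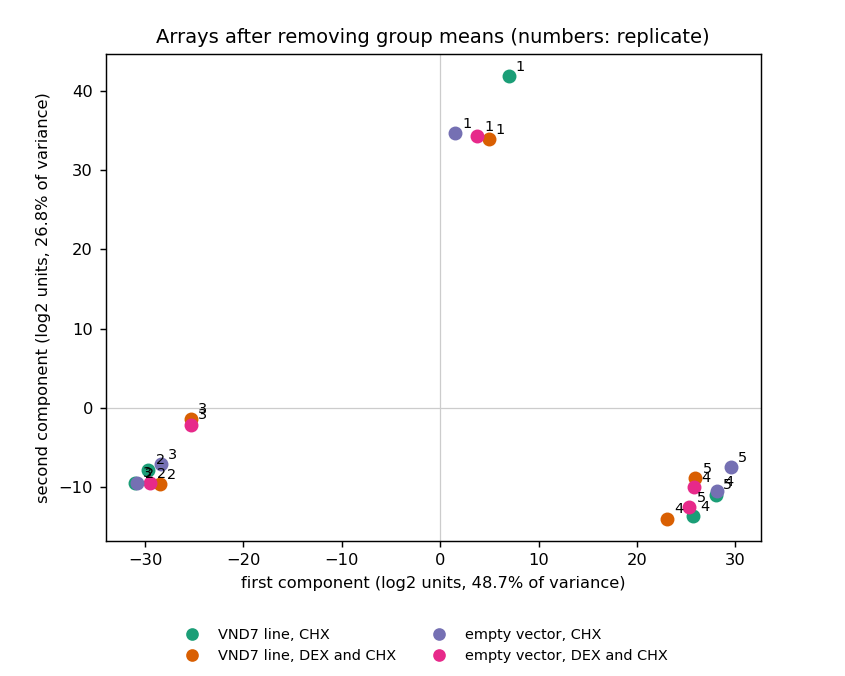
Principal components of the 20 arrays after the group means were removed, over probe sets brighter than the median; each point is an array, its colour the group and its number the replicate. Replicates 2 and 3 lie at -31.0 to -25.4 on the first component and replicates 4 and 5 at 23.0 to 29.5, with all 4 groups on each side.

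The split by side was wide where signals were bright. Of the variance within groups, 24.3% lay between the sides over all 22746 probe sets and 70.9% over the 11373 brighter than the median. The numbers within a side held 14.4% and 7.11% in the same order. Over bright probe sets the median size of the difference was 0.11 on the log2 scale between replicates 2 and 3 and 0.08 between replicates 4 and 5. For a number of one side against a number of the other it was 0.26 to 0.28. Replicate 1 stood at 0.30 and 0.33 from replicates 3 and 2 and at 0.24 from each of replicates 4 and 5.

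The rule used below counts a probe set when the mean log2 signal of the sides differed by at least 2-fold and the 8 arrays of one side did not overlap the other 8, both after division by the array median. By that rule 269 probe sets were higher in replicates 4 and 5 (1.18% of 22746) and 548 were lower (2.41%), 817 in all (3.59%). A named gene was attached to 129 of the former and 283 of the latter. Bright probe sets made up 192 of the former and 379 of the latter. With no fold minimum, 2842 probe sets (12.5%) had sides that did not overlap, 2400 of them among the bright and 442 among the dim. Each group has arrays on both sides, so the rule itself fixes the sign within each group. In 158 of those higher and 336 of those lower the difference was at least 2-fold within each group. Since the split was chosen from these values, nothing is read from the counts against their percentages. The median of all probe sets was -0.01 and the quartiles were -0.31 and 0.29.

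Replicate 1 took no part in this rule. Its mean lay between the sides for 184 of the 269 higher and 395 of the 548 lower probe sets. For 44 and 99 it lay beyond replicates 2 and 3, and for 41 and 54 beyond replicates 4 and 5. The median position was 0.39 and 0.37 of the way from replicates 2 and 3 (at 0) to replicates 4 and 5 (at 1).

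Among bright named genes, the clock gene GI had the largest difference upwards. GI (GIGANTEA) acts in the circadian clock and in flowering under long days. It was the single member of a list of 29 clock genes with a named probe set. Here and below, a measured member of a list is one with a named probe set. Other members may be on the array without a name, since 8730 of 22746 probe sets were not listed in the gene table. In replicates 2 and 3 the signals of GI were 194, 253 and 408 and in replicates 4 and 5 2277, 2512 and 2957. These are the lowest, the median and the highest of 8 arrays, and all such triplets below are in that order. Every array of replicates 4 and 5 was far above every array of replicates 2 and 3, a difference of 3.16 ± 0.13 on the log2 scale, or 8.94-fold. Values after ± are standard errors of the log2 difference over 16 arrays with the group as a covariate, in which arrays that share a number count separately. Replicate 1 lay between them at 645 to 1009.

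COR27, a cold-regulated gene that also acts in the clock, had signals of 186, 248 and 292 in replicates 2 and 3 against 1890.4, 2142 and 2435 in replicates 4 and 5. The sides stood 8.38-fold apart (3.07 ± 0.10), and replicate 1 lay at 271 to 483, nearer to replicates 2 and 3. CCL, the CCR-like gene, had 622, 930.0 and 1439 in replicates 2 and 3 against 4530.4, 7465 and 8978 in replicates 4 and 5 (2.76 ± 0.15). Its spread within replicates 4 and 5 was wider than that of GI, and the arrays still did not overlap.

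Cold and dehydration genes other than COR27 were higher in part. Of 5 measured members of a list of 45, 2 met the rule upwards (beside 1.18% of all probe sets) and 0 downwards, with a list median of 0.41. COR47, a dehydrin, had 351, 479 and 606 in replicates 2 and 3 and 1140.0, 1306 and 2070.3 in replicates 4 and 5 (1.47 ± 0.13). COR15B, a protein of the chloroplast stroma that protects membranes in the cold, had 152, 195 and 228 in replicates 2 and 3 against 363, 644 and 869 in replicates 4 and 5 (1.59 ± 0.16). Replicate 1 divided this pair: at 1013 to 1250.5 it was near replicates 4 and 5 for COR47, and at 150.5 to 182 it was at the level of replicates 2 and 3 for COR15B. COR15A differed by 0.41 ± 0.16, the dehydrin LTI30 by -0.09 ± 0.19 and LEA4-5, near the floor of the scale, by -0.48 ± 0.68, all with sides that overlapped.

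In chlorophyll and haem synthesis 1 of 7 measured members met the rule, upwards (beside 1.18% of all probe sets). PORB, which reduces protochlorophyllide in the light, had signals of 1646, 1871 and 1996 in replicates 2 and 3 and 3998, 5701 and 6838 in replicates 4 and 5 (1.47 ± 0.09). The 8 lower arrays lay within a narrow band, with replicate 1 at about the same level at 1726 to 2096. HEME2, an enzyme of the shared part of the pathway, had sides that did not overlap at a smaller size, 0.44 ± 0.08. The list median was 0.06, that is, close to that of all probe sets.

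Among 6 measured starch genes, DPE1, the plastid enzyme that recycles maltotriose from starch breakdown, had 152, 209.6 and 269 in replicates 2 and 3 against 438, 616 and 642 in replicates 4 and 5 (1.42 ± 0.13). All arrays of replicates 4 and 5 were higher, and replicate 1, at 151 to 196, was within or just below the range of replicates 2 and 3. The glucan phosphorylating enzyme PWD (AT5G26570) had 647, 693 and 765 in replicates 2 and 3 against 989.8, 1400.5 and 1669 in replicates 4 and 5, without overlap and just under 2-fold (0.88 ± 0.10). SBE2.2, a starch branching enzyme, differed by 0.47 ± 0.08 with overlapping sides, and the list median was 0.13.

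**Figure D2:**
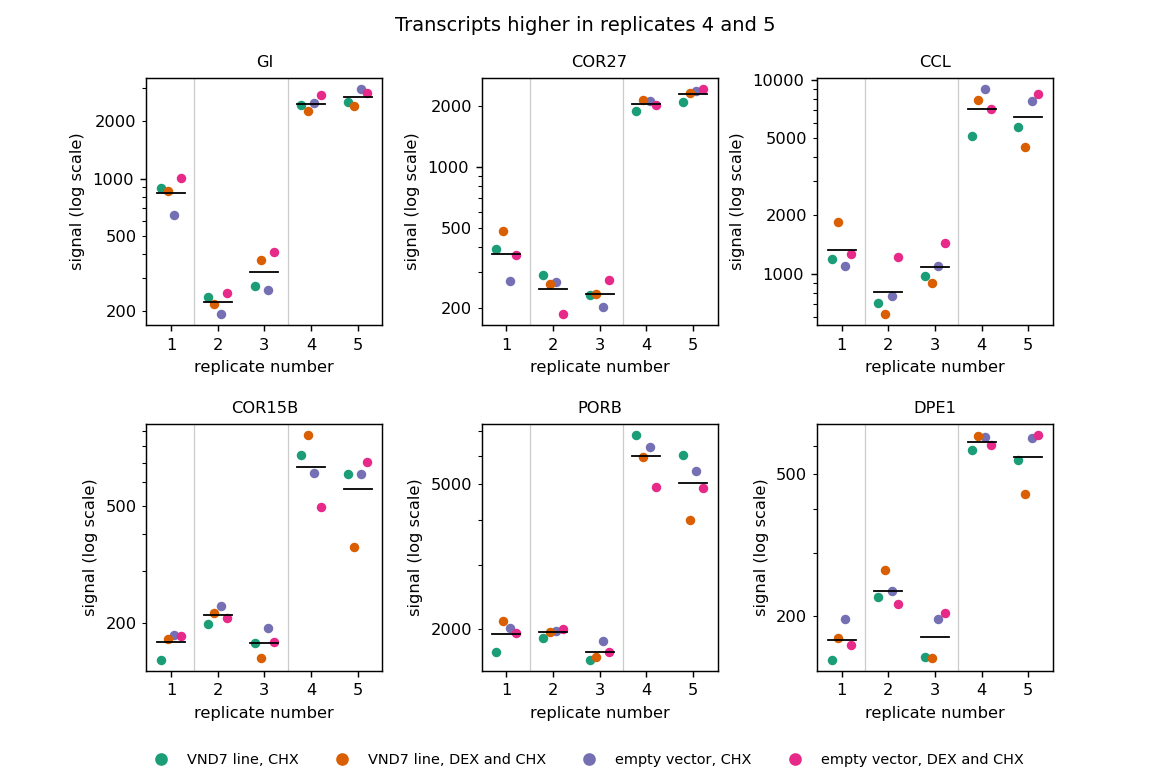
Recovered signal on a log axis against replicate number for 6 genes higher in replicates 4 and 5; points are arrays coloured by group and bars are the geometric mean of the 4 arrays of a number. For GI, COR27, CCL, COR15B, PORB and DPE1 no array of replicates 4 and 5 falls as low as any of replicates 2 and 3, and the place of replicate 1 differs from gene to gene.

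Genes of the plastid genome stood higher as a set of 69, with a list median of 0.28. Of the 69, 53 were above 0, beside 11193 of 22746 over all probe sets. The sides did not overlap for 14 of the 69 (20.3%), beside 21.1% of bright probe sets. The rule was met upwards by 6 (psaA, psaC, rpl14, rpl16, rpoB and ndhH) and downwards by 1, psbA, beside 1.18% and 2.41% of all probe sets. Without replicate 3, psaA, rpl16 and rpl14 came to 0.79, 0.91 and 0.99, and with the pseudocount described below rpoB came to 0.94, all under the minimum. Leaving out 1 array put psaA under it for 8 of the 16 arrays (down to 0.90) and rpl16 for 5 (down to 0.96). Under the other scalings, the pseudocount and these omissions, the lowest differences of ndhH and psaC were 1.14 and 1.04. For ndhH, a subunit of the plastid NADH dehydrogenase-like complex, signals were 179.8, 257 and 355 in replicates 2 and 3 against 565, 703 and 826 in replicates 4 and 5 (1.33 ± 0.14). The gene of ribosomal protein L14, rpl14, had 519.5, 806 and 1182 in replicates 2 and 3 against 1633, 1957 and 2332 in replicates 4 and 5 (1.16 ± 0.11). psaC, of the iron-sulphur subunit of photosystem I, had 579.5, 667 and 841 in replicates 2 and 3 against 1453, 1550.1 and 1914 in replicates 4 and 5 (1.09 ± 0.08). In each of these the sides were apart, and replicate 1 lay between them for ndhH (372 to 476) and level with or above replicates 4 and 5 for psaC (1581 to 2508).

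psbA, which encodes the D1 protein of photosystem II, went the other way, from 4513, 5516 and 14048 in replicates 2 and 3 to 2353, 2796 and 3876 in replicates 4 and 5 (-1.15 ± 0.20). Its sides did not overlap, but 1 array of replicates 2 and 3, replicate 2 of the VND7 line with DEX and CHX, stood at 14048 beside 4513 to 6001 on the other 7. Replicate 1, at 14238 to 18491, was just above that array and well above the rest. Without that array the difference of psbA was -0.99, and without all of replicate 2 it was -0.95, both under the minimum. Nuclear genes of the photosystems, PSBW, PSAE-1, PSAN and PSBY, stood at -0.27 to -0.14, and all 4 overlapped. In the light-harvesting list the related antenna genes of the CP29 protein differed among themselves. LHCB4.3 had 1170.1, 1681 and 1783 in replicates 2 and 3 against 289.7, 406 and 470.3 in replicates 4 and 5 (-2.15 ± 0.12), LHCB4.2 had -0.90 ± 0.09 without overlap, and LHCB4.1 had 0.14 ± 0.11 with overlap.

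Other genes with a name of their own were also higher in replicates 4 and 5. XTH33, which remodels xyloglucan, had 108, 120.2 and 149 in replicates 2 and 3 against 318, 473 and 602 in replicates 4 and 5 (1.84 ± 0.12), and replicate 1 was above the median of both sides at 503 to 998. TUB5, a beta-tubulin, differed by 1.42 ± 0.09. The glycosyltransferases UGT73B1 and UGT73C1 differed by 1.34 ± 0.13 and 1.34 ± 0.12. Fes1B, related to the Hsp70 cofactor Fes1 of yeast, had 68.1, 115 and 146 in replicates 2 and 3 against 617, 772 and 874 in replicates 4 and 5 (2.65 ± 0.10). All of these had sides that did not overlap.

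The 14 largest upward differences also took in 10 genes that carry only a locus number in the annotation used. AT5G62360 had 62.8, 97.4 and 134 in replicates 2 and 3 against 412, 889 and 1244 in replicates 4 and 5 (2.97 ± 0.19), and the arrays of replicates 4 and 5 were spread widely. For AT4G32340 the signals were 200.4, 237 and 283 in replicates 2 and 3 against 1239.7, 1674 and 1911 in replicates 4 and 5 (2.65 ± 0.09), a tight pair of sides. AT4G33980 had 184, 229 and 276 in replicates 2 and 3 against 1085, 1145 and 1347 in replicates 4 and 5 (2.24 ± 0.07), with the smallest error of the 14. For AT4G16563 replicate 1, at 528 to 696, was level with replicates 4 and 5 (438, 597 and 717) and above replicates 2 and 3 (70.3, 104 and 129.9). Replicate 1 was also above replicates 2 and 3 and reached into the range of replicates 4 and 5 for AT5G62360, AT1G62510 and AT1G21680. For AT1G62510 it was at 276.5 to 585, beside 53.6 to 151 in replicates 2 and 3 and 385 to 800.3 in replicates 4 and 5. The remaining 6, AT4G30650, AT1G70820, AT4G15680, AT1G62510, AT1G21680 and AT3G62550, differed by 2.25 to 2.72, and each had sides that did not overlap.

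Downwards, defence genes under jasmonate control had some of the largest differences. Of 5 measured members of a list of 40, 4 met the rule, all lower in replicates 4 and 5 (beside 2.41% of all probe sets). The list median was -2.79. PDF1.2, the plant defensin used as a marker of jasmonate and ethylene signalling, had 1539, 2912 and 4389 in replicates 2 and 3 and 116, 320.1 and 935 in replicates 4 and 5. The sides differed by -3.48 ± 0.31, 11.2-fold, and the arrays of replicates 4 and 5 were spread widely among themselves. Replicate 1, at 272 to 601, was within the range of replicates 4 and 5. PDF1.2b, a near copy, had 2449, 3510.5 and 4285 in replicates 2 and 3 against 190.2, 446 and 1293 in replicates 4 and 5 (-3.12 ± 0.26). Related transcripts can bind its probe set, so the pair may not be independent.

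JMT, which turns jasmonic acid into its methyl ester, had 85.3, 117 and 168 in replicates 2 and 3 against 22.3, 32.8 and 41.1 in replicates 4 and 5 (-2.06 ± 0.17). JAL23, a jacalin-related lectin, had 38.6, 95.8 and 115 in replicates 2 and 3 against 2.5, 16.0 and 32.5 in replicates 4 and 5 (-2.79 ± 0.45), with the lower side partly at the floor of the scale. For both, replicate 1 was above the median of replicates 2 and 3 (118 to 152 and 99.8 to 209.8). Dim probe sets depend on the scale: with a pseudocount of 52.9 signal units, the 30th percentile of all signals, JMT came to -1.03, JAL23 to -1.02 and the list median to -1.03. THI2.1, a thionin of the same list, differed by -0.72 ± 0.36 and overlapped. JRG21, a jasmonate-regulated dioxygenase outside the list, had 1266, 1872 and 2799.9 in replicates 2 and 3 against 243, 385 and 499 in replicates 4 and 5 (-2.49 ± 0.19). LCR67, also named plant defensin 1.1, had 279.7, 386 and 426 in replicates 2 and 3 against 62.3, 89.8 and 123 in replicates 4 and 5 (-2.09 ± 0.15), and replicate 1 was near replicates 4 and 5 at 58.8 to 75.9.

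Flavonoid genes were lower in replicates 4 and 5 in 5 of 10 measured members of a list of 38 (beside 2.41% of all probe sets). None were higher by the rule, and the list median was -1.05. DFR, dihydroflavonol reductase, which opens the branch to anthocyanins, had 202, 281 and 389 in replicates 2 and 3 against 21.8, 43.9 and 51.9 in replicates 4 and 5 (-2.99 ± 0.22). Every array of replicates 4 and 5 was below every array of replicates 2 and 3, with replicate 1 near the latter at 162 to 289. With the pseudocount the difference was -1.86. UF3GT, which adds xylose to anthocyanins, had 244, 291 and 341 in replicates 2 and 3 against 42.2, 55.5 and 101 in replicates 4 and 5 (-2.39 ± 0.15). CHIL, a chalcone isomerase-like protein that raises flux into the pathway, had 227, 347 and 468 in replicates 2 and 3 against 30.5, 89.9 and 116 in replicates 4 and 5 (-2.16 ± 0.25).

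HYH, a bZIP factor of light signalling related to HY5, stood in the same list and had 773, 1016 and 1195 in replicates 2 and 3 against 126, 213 and 294 in replicates 4 and 5 (-2.40 ± 0.14). Its replicate 1 values, 568 to 644, lay between the sides. The flavonoid glucosyltransferase UGT78D2 had 613, 752 and 838 in replicates 2 and 3 against 319.9, 346 and 510.4 in replicates 4 and 5 (-1.11 ± 0.09), and its relative UGT78D1 differed by -0.98 ± 0.19, just under 2-fold and without overlap. AT5MAT, BAN and UGT78D3 differed by -0.54 to -0.41 and UGT84A1 by 0.35, each with overlap. UGT78D2 was under the minimum with the pseudocount (-0.91), and UGT78D1 passed it without replicate 3 (-1.25).

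**Figure D3:**
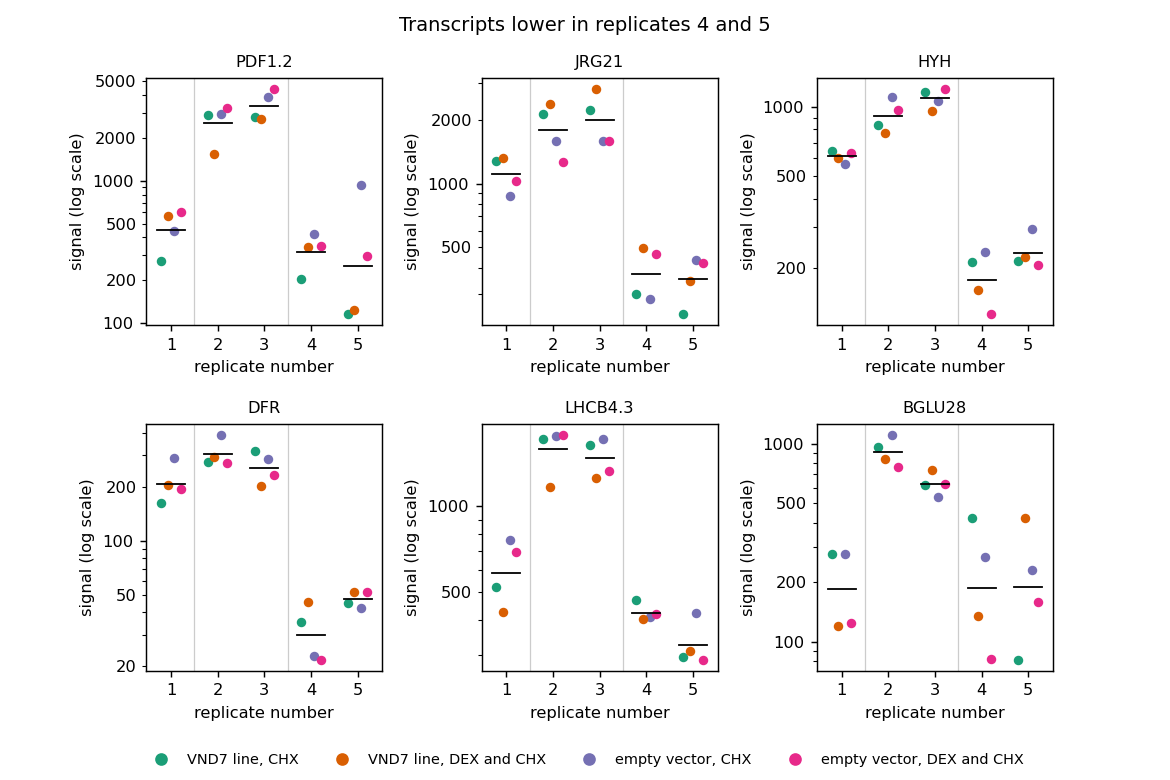
Recovered signal on a log axis against replicate number for 6 genes lower in replicates 4 and 5; points are arrays coloured by group and bars are the geometric mean of the 4 arrays of a number. PDF1.2, JRG21, HYH, DFR, LHCB4.3 and BGLU28 all have sides that do not overlap, and replicate 1 lies close to replicates 4 and 5 for PDF1.2 and BGLU28 and close to replicates 2 and 3 for DFR.

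The largest downward difference of all bright named genes was that of AT1G76640, the calmodulin-like gene CML39, with 587, 924 and 1078 in replicates 2 and 3 and 30.7, 55.8 and 87.3 in replicates 4 and 5. That is 16.8-fold (-4.07 ± 0.24), and replicate 1, at 590.3 to 1127, was level with replicates 2 and 3. With the pseudocount the difference was -3.04. CML41, a calmodulin-like protein of plasmodesmata, had 2661, 3123 and 4363 in replicates 2 and 3 against 734, 839 and 1049 in replicates 4 and 5 (-2.05 ± 0.10), with replicate 1 nearer to replicates 4 and 5 at 914 to 1172. CML38, measured in the list of hypoxia genes, differed by 0.22 ± 0.07 and overlapped.

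Beta-glucosidases, enzymes that release defence compounds and lignin precursors from their glucosides, were gathered as a list after their values had been seen. In that list 7 of 20 measured members were lower and 0 higher by the rule (beside 2.41% and 1.18% of all probe sets), with a median of -0.18. BGLU28, an enzyme linked to sulphur starvation, had 538, 747 and 1105 in replicates 2 and 3 against 81.4, 194 and 422 in replicates 4 and 5 (-2.11 ± 0.37). BGLU46, which acts on monolignol glucosides, had 2784, 3751 and 4363 in replicates 2 and 3 against 1387, 1737 and 2120.5 in replicates 4 and 5 (-1.17 ± 0.09), and its neighbour in function BGLU45 had 225, 266 and 322 in replicates 2 and 3 against 59.6, 74.2 and 97.5 in replicates 4 and 5 (-1.92 ± 0.10). BGLU27, BGLU31, BGLU32 and BGLU40 were lower by the same rule at -2.09 to -1.11. In contrast BGLU19 and BGLU36 stood at 1.54 and 1.27 with overlapping arrays. With the pseudocount BGLU32 came to -1.28, and BGLU27 (-0.97) and BGLU40 (-0.76) were under the minimum, as BGLU27 also was after quantile normalization (-0.96).

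Glutathione transferases, which conjugate reactive compounds for detoxification, were lower in 2 of 12 measured members (beside 2.41% of all probe sets). GSTU16 had 516, 697 and 801 in replicates 2 and 3 against 141, 176 and 201 in replicates 4 and 5 (-2.06 ± 0.10) and GSTU26 had 113, 286 and 387 in replicates 2 and 3 against 57.2, 77.9 and 117 in replicates 4 and 5 (-1.65 ± 0.29). The sides of GSTU26 are apart only after division by the array median: on the signals printed here they overlap, at 113 and 117, and the rule is not met. Of the 12, 2 were above 0, and the list median was -0.50. Other enzymes of defence and redox metabolism that were lower included AOR, an oxidoreductase of reactive carbonyls, with 1785, 2377 and 2984 in replicates 2 and 3 against 656, 724 and 874 in replicates 4 and 5 (-1.75 ± 0.08). MSRB5, a methionine sulphoxide reductase, differed by -1.70 ± 0.16, UGT76B1, a glucosyltransferase of defence regulators, by -1.74 ± 0.11 and UGT76E12 by -1.84 ± 0.22. IRX15-L, which acts in xylan synthesis in secondary walls, had 292, 404 and 487 in replicates 2 and 3 against 82.7, 137 and 275 in replicates 4 and 5 (-1.56 ± 0.24), while its replicate 1 was above both at 578 to 965.

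In the list of expansins and xyloglucan enzymes, 27 members were measured, of which XTH33 was higher and XTH26 and XTH29 were lower. Over all probe sets 1.18% were higher and 2.41% lower. XTH26 had 117, 226 and 362 in replicates 2 and 3 against 5.70, 26.2 and 55.1 in replicates 4 and 5 (-3.74 ± 0.48), the lower side reaching the floor of the scale, and -1.89 with the pseudocount. EXLA1, an expansin-like gene, was higher without overlap at a size just under the minimum (1.00 ± 0.08). AGL24, a MADS factor that promotes flowering, was lower at 84.5, 91.8 and 131 in replicates 2 and 3 against 11.5, 47.3 and 66.2 in replicates 4 and 5 (-1.47 ± 0.33) and was 1 of 3 measured members of its list. With the pseudocount AGL24 (-0.69) and XTH29 (-0.55) were under the minimum, the sides of XTH29 overlap on the signals not divided by the array median, and EXLA1 passed it with the pseudocount and under both other scalings (1.07 to 1.11).

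Of the downward 14, 9 more carry a locus number alone. AT2G25510 was the brightest, with 8910.4, 11883 and 14774 in replicates 2 and 3 against 1171, 2747 and 4225 in replicates 4 and 5 (-2.37 ± 0.22). AT3G28220 had 1464, 2187 and 3111 in replicates 2 and 3 against 159.5, 294 and 415 in replicates 4 and 5 (-3.06 ± 0.23), and AT5G48490 had 1276, 1732 and 2622 in replicates 2 and 3 against 148, 218 and 381 in replicates 4 and 5 (-3.02 ± 0.22). AT2G15780 had 321, 472 and 617 in replicates 2 and 3 against 67.8, 79.8 and 108 in replicates 4 and 5 (-2.55 ± 0.16), and its replicate 1, at 59.3 to 94, was level with replicates 4 and 5. By contrast AT1G47400, at 325, 535 and 690.1 in replicates 2 and 3 against 42.3, 66.7 and 109.6 in replicates 4 and 5 (-3.02 ± 0.22), had replicate 1 at 418 to 912, level with replicates 2 and 3. AT5G19110, AT2G22760, AT1G32970 and AT3G56290 differed by -2.77 to -2.32, again without overlap.

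**Figure D4:**
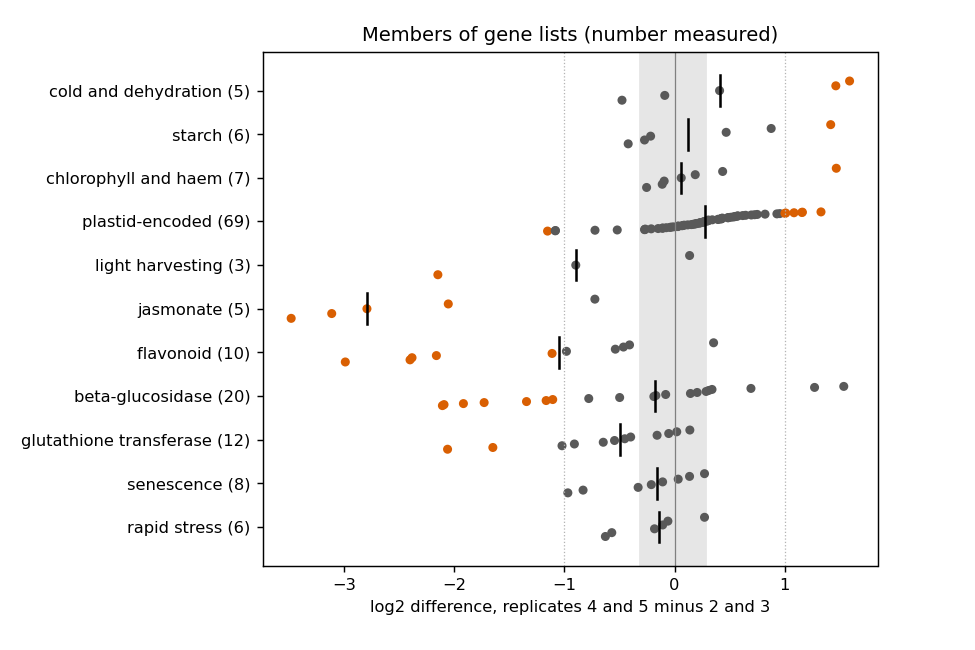
Log2 difference, replicates 4 and 5 minus replicates 2 and 3, for each measured member of 11 gene lists; orange points are at least 2-fold with sides that do not overlap, black bars are list medians, the grey band is the range between the quartiles of all probe sets (-0.31 to 0.29), and dotted lines mark 2-fold. The jasmonate (median -2.79) and flavonoid (median -1.05) medians lie to the left of 0, with 1 flavonoid member, UGT84A1, at 0.35, and most plastid-encoded genes (median 0.28) lie to the right.

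Of the 29 fixed lists with a measured member, 17 held no measured member that met the rule. Among them were cell cycle kinases (AUR1, AUR2 and AUR3, median 0.12), senescence genes (8 measured, median -0.16), early auxin genes (17 measured, median -0.24) and rapid stress genes (6 measured, median -0.14). Not all 17 had medians near 0. Iron genes (2 measured) stood at -1.43, epidermis and guard cell genes (4 measured) at -1.05 and seed storage genes (3 measured) at 0.55. Lists were matched by symbols and synonyms, so a member that the annotation gives only by a locus number can be missed. AT1G47400 (-3.02, without overlap) carries only such a number and was not counted in the iron list. That no iron gene met the rule therefore holds for the 2 measured members alone. The 1 measured gene of the indole glucosinolate list was at -0.76 and that of the nitrate list at 0.91. With the pseudocount the iron median came to -0.52 and the epidermis and guard cell median to -0.23. Within the senescence list YLS5 stood just under the minimum at -0.97 ± 0.09, without overlap. In the rapid stress list the ubiquitin ligases PUB22 and PUB24 were at -0.63 ± 0.09 and -0.57 ± 0.11 without overlap, and PUB23 at -0.18 ± 0.11 with overlap. The reference genes PEX4 and GAPC2 differed by -0.20 ± 0.08 and -0.10 ± 0.07, both with overlapping arrays.

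At the edge of the rule, psaA was just inside with 1.00 ± 0.16 and EXLA1 just outside with 1.00 ± 0.08, and neither had overlapping arrays. UGT78D1 and YLS5 lay just outside on the lower side.

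For the 14 largest upward differences the value within a group, 2 arrays against 2, ran from 1.73 to 3.49, and for the 14 downward from -4.39 to -1.76. PDF1.2 varied most among those shown, from -4.39 to -2.54, and AT4G33980 little, from 2.1 to 2.37. Their sign within each group is fixed by the rule. In the fit described next, none of the 28 had an adjusted p under 0.989 (limma) for a DEX response or a line difference under CHX that differed between the sides. The 28 were chosen for sides that did not overlap over all groups, which favours like differences across groups. Nothing is therefore read from these p-values. The largest such estimate was that of PDF1.2, whose line difference under CHX differed by -1.85 on the log2 scale (replicates 4 and 5 minus 2 and 3).

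**Figure D5:**
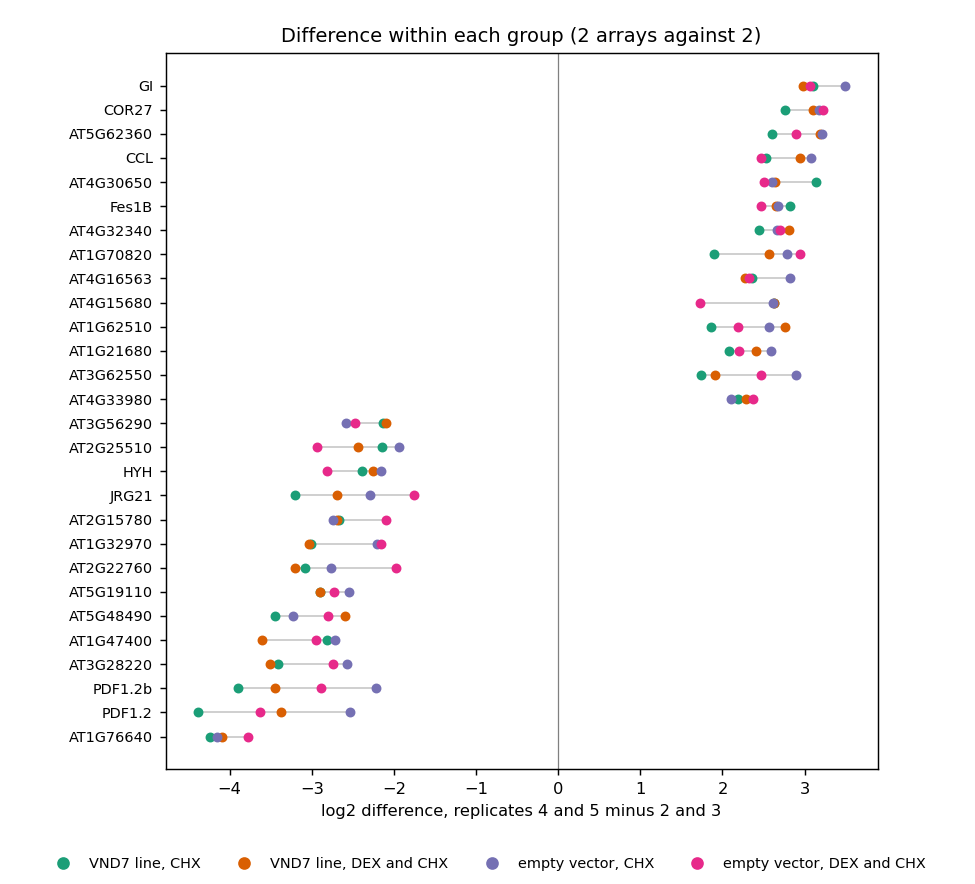
Log2 difference, replicates 4 and 5 minus replicates 2 and 3, within each of the 4 groups (2 arrays against 2) for the 14 largest upward and 14 largest downward differences among bright named genes; points are coloured by group and grey lines join the extremes. Upward values lie between 1.73 and 3.49 and downward values between -4.39 and -1.76; the choice of genes without overlap fixes the side of 0.

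Whether DEX acted differently in replicates 4 and 5 is a question that the choice of arrays did not use, and it was tested across all probe sets with limma, with 8 residual degrees of freedom. In the VND7 line the DEX response differed between the sides for 0 of 22746 probe sets (0%; smallest Benjamini-Hochberg adjusted p = 0.989), while 671 were above and 396 below at an unadjusted p under 0.05, against 1137 given by chance. In the empty-vector line it differed for 0 (0%; smallest adjusted p = 0.999, limma), with 765 at an unadjusted p under 0.05. What separated the lines when CHX was given alone differed between the sides for 0 (0%; smallest adjusted p = 0.626, limma), with 887 at an unadjusted p under 0.05. The median standard error of these differences was 0.25 on the log2 scale over bright probe sets. Much larger differences also missed the threshold, such as that of PDF1.2 between the lines, with an absolute size of 1.85. The 0 calls therefore do not exclude differences in response well above 0.25. A p that misses the threshold does not show that the responses were alike.

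Genes already known from these arrays to respond to DEX show the sizes involved. AT1G70500 had a log2 DEX response in the VND7 line of 2.70 in replicates 2 and 3 and 3.20 in replicates 4 and 5, a difference of 0.51 ± 0.44 (SE). For AT1G23460 the responses were 2.94 and 2.71 (difference -0.24 ± 0.34), with a probe set that can bind related transcripts. AT5G38610 had 2.42 and 2.39 (difference -0.03 ± 0.33), and AT3G47400 had 3.03 and 2.35 (difference -0.68 ± 0.51). All of these responses were upwards on both sides, and the differences between the sides did not pass (adjusted p = 0.989 to 0.999, limma). These genes were chosen for their response in these same arrays. That choice favours an upward response on both sides, so nothing is read from the shared direction. In the empty-vector line LBD16, a factor of lateral root initiation, had 1.68 and 1.73 (difference 0.05 ± 0.36), and AT1G28160 had 3.01 and 4.39 (difference 1.38 ± 0.88; adjusted p = 0.999 for each, limma). LBD16 in the VND7 line had 0.54 and -0.23 (difference -0.77 ± 0.36, adjusted p = 0.989, limma). AT2G04850 had 1.77 and 1.61 in the VND7 line (difference -0.15 ± 0.34). In the empty-vector line AT2G04850 had 0.22 and -0.72 (difference -0.94 ± 0.34, adjusted p = 0.999, limma).

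The 4-5 against 2-3 difference of these DEX-responsive genes was small beside their response. For AT1G70500 it was -0.40, for AT1G23460 0.13, for AT3G47400 -0.09 and for AT5G38610 -0.34 on the log2 scale, averaged over the 4 groups. None of them met the rule for a difference between the sides.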

How the data were processed

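Each array is a one-colour Affymetrix array with 22746 probe sets, hybridised with biotin-labelled cRNA from 10 µg of total RNA per the labels. The authors computed signals by MAS5 (version not given in the sources used here), as listed in the submitters' processing notes. The deposited values are natural log (ln) values of the signal divided by the array's median. That scale was worked out from the values, since exponentiated values fell on whole steps of 0.1 signal units (tolerance 0.02 of a step) on every array. They were turned into log2, and signals were recovered on that step. Detection calls were not used here. How precise a value is depends on how few arrays there are. Of the probe sets, 13436 (59.1%) were paired with exactly 1 gene through the array's gene table, with names from RefSeq (TAIR10.1).

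Differences between the sides were means with the group as a covariate, and differences in response were fitted with limma 3.58.1 in R 4.3.3 (a mean for each group and side, eBayes with a variance trend, Benjamini-Hochberg adjusted p under 0.05). The script was tested on simulated data. The members and lists were chosen with earlier results of these data known. Genes were named by a rule: the 14 largest differences in each direction among bright named probe sets whose sides did not overlap, and up to 4 bright members of each list. The next 10 in each direction with a symbol of their own were added after values were seen, as was the beta-glucosidase list. Other genes named, such as AT1G70500, dim members of lists and genes near the minimum, were also chosen after their values were seen. Of 37 fixed lists, 4 that need product names were not used here, and 4 members were left out because the symbol belongs to another gene. A gene in a list was represented by its brightest probe set. Sequences and promoters were not used here. Alternatives were another scaling, a pseudocount, a filter on dim probe sets, other fold minimums, arrays and numbers left out, and replicate blocks.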

Additional observations from a re-analysis of the deposited data

Results flagged for a closer look

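For the 28 genes with the largest differences and a few summaries of each array, 62 sets of 8 arrays were checked for an array that stood apart by Dixon's criterion which weighs the gap to the nearest array against the whole range on the log2 scale. Chance gives about 1 in 20 such sets, and 4 were found. PDF1.2 in replicates 2 and 3 had its lowest signal, 1539, in replicate 2 of the VND7 line with DEX and CHX, while the other 7 arrays lay between 2725 and 4389, a gap of 0.543 of the range. The same array was the lowest for PDF1.2b, with 2449 beside 3164 to 4285, a gap of 0.541. AT4G33980 in replicates 4 and 5 had its highest signal, 1347, in replicate 5 of the VND7 line with DEX and CHX, above 1085 to 1166 on the others, a gap of 0.685. For AT4G30650 in replicates 2 and 3, replicate 2 of the empty vector with CHX had 237, above 134 to 184 on the others, a gap of 0.53. None of these arrays crossed to the other side.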

How the results depend on the processing

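Of the 817 probe sets counted, 32.9% were higher in replicates 4 and 5. The count was 535 with a pseudocount of 52.9 signal units (43.7% higher, 505 shared with the 817). It was 782 with signals not divided by the array median (46.3% higher) and 799 after quantile normalization. A 1.5-fold minimum gave 1914 and a 3-fold minimum 299. Within single groups, 2 arrays against 2, it was 2703 (empty vector with CHX), 2603 (empty vector with DEX and CHX), 2779 (VND7 line with CHX) and 2376 (VND7 line with DEX and CHX), where fewer arrays must not overlap. Leaving out 1 array gave 809 to 861, and leaving out a replicate number 898 to 1019. Differences in response stayed at 0 calls except 1 in the empty-vector line without replicate 3 of the empty vector with CHX (limma, smallest adjusted p = 0.0263) or without replicate 2 (0.0435), so leaving out arrays gave 0 to 1, and 1 for the line difference with no variance trend (0.04). Over all settings the smallest adjusted p of limma ran from 0.0263 to 1.00 in the empty-vector line, from 0.04 to 1.00 for the line difference and from 0.174 to 1.00 in the VND7 line. With the replicate block the counts were 0, 0 and 0 (1261, 906 and 1069 at an unadjusted p under 0.05). Same-numbered arrays correlated at -0.288 to 0.47 once side means were removed, so the numbers were not read as pairing arrays within a side. Over named genes 44 of 2825 values under other settings moved by more than the spread between arrays and 0 changed sign among those counted. Probe sets of a few signal units carry no reliable ratio. The causes were not tested.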
